A study of Rattus norvegicus with 12 samples.

Results

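The PGC-1 coactivators and the transcription regulators that act with them on mitochondrial genes were followed in the rat left ventricle across 3 levels of lifelong activity. The members are Ppargc1a, Ppargc1b, Ppara, Esrra, Esrrg, Nrf1, Gabpa, Tfam and Tfb2m. Every probe set, a group of short probes for 1 transcript, whose only annotated symbol is one of these was taken, which gave 14 probe sets for 9 genes out of 31042 probe sets on the array, or 14217 genes with a single symbol. The genes were chosen by name with earlier results of these data in view, among them the differences from SED of the Ppargc1a probe sets, Gabpa and Tfam. The differences from SED below are therefore given as descriptions.

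All animals were female Sprague-Dawley rats (Charles River) aged 16 months. EX rats had access to voluntary exercise throughout life, PA rats were put in a large box for 1 h of physical activity 2 times per week, and SED rats lived in a standard cage and nowhere else. Each of the 3 groups has 4 arrays, so 12 arrays in all. RNA of 4 animals was pooled per array and 12 animals are stated per group, which would make 3 arrays, while 4 are listed. Whether each array is a separate pool is therefore not settled, and errors measure the spread between these arrays, which may in part be technical.

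PGC-1alpha, encoded by Ppargc1a, and its relative PGC-1beta, encoded by Ppargc1b, do not bind DNA themselves. They are recruited by nuclear receptors such as PPARalpha and the estrogen-related receptors, and by nuclear respiratory factor 1 (Nrf1) and GA-binding protein (Gabpa), and raise transcription of genes for fatty acid oxidation and the respiratory chain. Tfam and Tfb2m carry the programme into the mitochondrion, where their proteins are needed to start transcription of mitochondrial DNA. The heart burns mostly fatty acids and is rich in mitochondria, and PGC-1alpha is known as a gene induced by exercise in skeletal muscle.

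Promoters of 4 members are shown: the coactivator with discordant probe sets, and 3 factors whose windows hold a core bound by a member of the set. Ppargc1a holds the cAMP response element TGACGTCA, through which CREB is known to act on this gene. Gabpa and Tfam, both with higher means in EX and PA than in SED, hold CCGGAAG, the core bound by GA-binding protein. Tfb2m, whose group means lay close together, holds GCATGCGC, the core bound by nuclear respiratory factor 1. The windows are RefSeq's, on GRCr8, from 250 bases before to 50 bases after the annotated start, and capitals mark the motif: Ppargc1a at chr14:63634058-63634357 (plus strand), Gabpa at chr11:37375014-37375313 (plus), Tfam at chr20:17355123-17355422 (plus) and Tfb2m at chr13:93828545-93828844 (minus).
Ppargc1a: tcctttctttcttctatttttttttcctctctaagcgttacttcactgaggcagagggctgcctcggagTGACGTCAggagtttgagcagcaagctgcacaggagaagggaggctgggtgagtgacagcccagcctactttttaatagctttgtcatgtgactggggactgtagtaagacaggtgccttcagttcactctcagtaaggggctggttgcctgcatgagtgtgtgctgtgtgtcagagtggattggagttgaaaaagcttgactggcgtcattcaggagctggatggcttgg
Gabpa: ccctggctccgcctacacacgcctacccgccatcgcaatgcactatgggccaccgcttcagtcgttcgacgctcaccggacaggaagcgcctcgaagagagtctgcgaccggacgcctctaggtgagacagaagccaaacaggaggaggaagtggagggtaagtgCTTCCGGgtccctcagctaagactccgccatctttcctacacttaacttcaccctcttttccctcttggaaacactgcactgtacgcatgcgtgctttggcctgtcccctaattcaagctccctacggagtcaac
Tfam: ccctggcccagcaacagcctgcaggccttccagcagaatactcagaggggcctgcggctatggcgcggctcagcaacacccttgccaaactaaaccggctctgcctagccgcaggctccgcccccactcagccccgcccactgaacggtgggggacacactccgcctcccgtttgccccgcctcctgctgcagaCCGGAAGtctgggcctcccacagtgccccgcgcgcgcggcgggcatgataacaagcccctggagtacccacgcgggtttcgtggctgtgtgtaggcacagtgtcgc
Tfb2m: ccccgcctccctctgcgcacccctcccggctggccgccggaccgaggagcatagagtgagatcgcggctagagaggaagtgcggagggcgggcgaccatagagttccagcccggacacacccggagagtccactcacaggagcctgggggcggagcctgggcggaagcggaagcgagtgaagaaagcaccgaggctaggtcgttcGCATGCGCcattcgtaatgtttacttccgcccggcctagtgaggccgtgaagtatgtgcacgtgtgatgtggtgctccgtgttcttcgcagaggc
The Ppargc1a motif starts at -181 relative to the start, that of Gabpa at -85, that of Tfam at -56 and that of Tfb2m at -45. Counting both strands, TGACGTCA was present in 1.83% of the 33469 promoter windows, GCATGCGC in 2.47% and CCGGAAG in 8.75%. All 9 genes matched, with 12 windows, 4 of them for Esrrg. GCATGCGC was also in the windows of Esrra and Ppara, which are not printed. Ppara had higher means in EX and PA than in SED, while the group means of Esrra lay close together. No direction is therefore read from a motif. AAGGTCA, the core bound by estrogen-related receptors, was in 4.61% of all windows and in 0 of the 12. The Gabpa motif lies on the other strand, as CTTCCGG. These matches describe letters in a window and not binding.

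The deposited log2 signals had array medians of 5.64 to 5.72. SED 1 stood apart in its mean correlation with the other arrays, which was 0.964, against 0.987 to 0.989 for the others. The 3' minus 5' signal of the Gapdh control probe sets grows as RNA degrades. It was 1.56 log2 units in SED 1 and 0.96 to 1.35 elsewhere. The same signal of beta-actin set SED 1 less apart, at 1.70, with 1.37 to 1.67 on the other arrays. The interquartile range of the log2 signals was 3.89 to 4.04 in EX, 3.93 to 4.04 in PA and 3.58 to 3.86 in SED, so all SED arrays, SED 1 the most, had a narrower spread than any EX or PA array. Differences are therefore given with and without SED 1, and for several members with quantile normalization, which gives all arrays the same spread. All 7 measured ventricular cardiomyocyte markers were above the filter on dim probe sets, and their mean log2 signal was 12.32 to 12.39 in EX, 12.33 to 12.42 in PA and 12.37 to 12.44 in SED. Atrial markers, 5 of 5 above the filter, varied more, with summed linear signals of 4211 to 7057 in EX, 4454 to 5292 in PA and 4082 to 5640 in SED. Their mean log2 signal was 7.67 to 9.48 in EX, 8.20 to 8.64 in PA and 8.21 to 8.75 in SED. Myl7 varied most among them. It read 10.12, 4.09, 10.88 and 4.23 in EX, 7.63, 8.10, 7.88 and 6.61 in PA, and 6.85, 8.70, 9.01 and 7.24 in SED. EX 3, with the highest atrial sum, was also the highest array for Ppargc1a 1370089_at, Ppargc1b, Ppara and Esrrg 1394577_at. Leukocyte markers, 8 of 8 above the filter, summed to 4396 to 4812 in EX, 4720 to 5334 in PA and 4065 to 6025 in SED, the highest being SED 3. Of 5 skeletal muscle markers, Myh4, Actn3 and Tnni2 were below the filter. The mean log2 signal of the 5 was 5.96 to 6.04 in EX, 5.93 to 5.98 in PA and 6.11 to 6.24 in SED, with every SED array the higher. Their summed linear signals overlapped, at 6852 to 7034 in EX, 6655 to 7120 in PA and 6723 to 7433 in SED. Myh1, by far the brightest of the 5 at 12.68 to 12.84, makes up most of that sum. The overlap therefore says little about the other markers. Myh1 and Tnnt3, the markers above the filter, each overlapped between groups. Blood cell markers (4 of 4 above the filter) averaged 7.39 to 8.53 in EX, 7.88 to 8.58 in PA and 6.99 to 9.42 in SED, and fibroblast markers (5 of 5) 10.28 to 10.36 in EX, 10.18 to 10.52 in PA and 10.002 to 10.47 in SED. Endothelial markers (3 of 3 measured) averaged 10.27 to 10.45 in EX, 10.32 to 10.40 in PA and 10.25 to 10.74 in SED, and 4 of 5 adipocyte markers were below the filter. The part of these markers, of the spread of the arrays and of the array quality of SED 1 in the results below was not tested. In whole ventricle, fewer cells of a type and less RNA per cell cannot be told apart.

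Ppargc1a is measured by 3 probe sets, and they gave different pictures. On 1370089_at the log2 signal was 6.50, 6.50, 7.01 and 6.74 in EX, 6.69, 6.69, 6.62 and 6.88 in PA, and 5.68, 5.84, 6.33 and 5.98 in SED. Every EX and every PA array lay above every SED array. The means were 6.69 ± 0.24 in EX, 6.72 ± 0.11 in PA and 5.96 ± 0.28 in SED (SD, n = 4 each). The difference was 0.73 ± 0.15 (SE, 95% interval 0.40 to 1.06) in EX against SED and 0.76 ± 0.15 (0.43 to 1.10) in PA against SED, or 1.66-fold and 1.70-fold. Without SED 1, the lowest array, these differences were 0.64 ± 0.15 and 0.67 ± 0.15. Leaving out a SED array could not make the groups overlap, so their separation was not put to a test by this. With quantile normalization the differences were 0.68 in EX and 0.71 in PA.

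The other probe sets of Ppargc1a are much brighter and separated the groups less. On 1393743_at the log2 signal was 10.64, 10.72, 10.65 and 10.77 in EX, 10.81, 10.74, 10.71 and 10.92 in PA, and 10.20, 10.76, 10.68 and 10.68 in SED. Only SED 1 was low, and the remaining SED arrays lay among the EX and PA arrays. The difference was 0.115 ± 0.12 (SE) in EX against SED and 0.215 ± 0.12 in PA against SED. It was -0.01 ± 0.08 and 0.09 ± 0.08 without SED 1, and 0.01 and 0.11 when limma weighted the arrays by their quality.

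On 1395518_at the log2 signal was 10, 10.36, 10.35 and 10.46 in EX, 10.39, 10.24, 10.24 and 10.37 in PA, and 9.21, 10.29, 10.41 and 10.06 in SED. Here too SED 1 was far below the rest (-1.04 log2 units from the mean of the other SED arrays), and EX 1 and SED 4 were the next lowest. The difference of 0.30 ± 0.22 (SE) in EX against SED was 0.04 ± 0.12 without SED 1, and that of 0.32 ± 0.22 in PA against SED was 0.06 ± 0.12. With array weights both were 0.12. The 3 probe sets thus spanned 0.615 log2 units in EX against SED and 0.55 in PA against SED, and 0.65 and 0.61 without SED 1. With 32 added to the linear signals, which dampens dim probe sets, the span was 0.41 and 0.33.

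**Figure D1:**
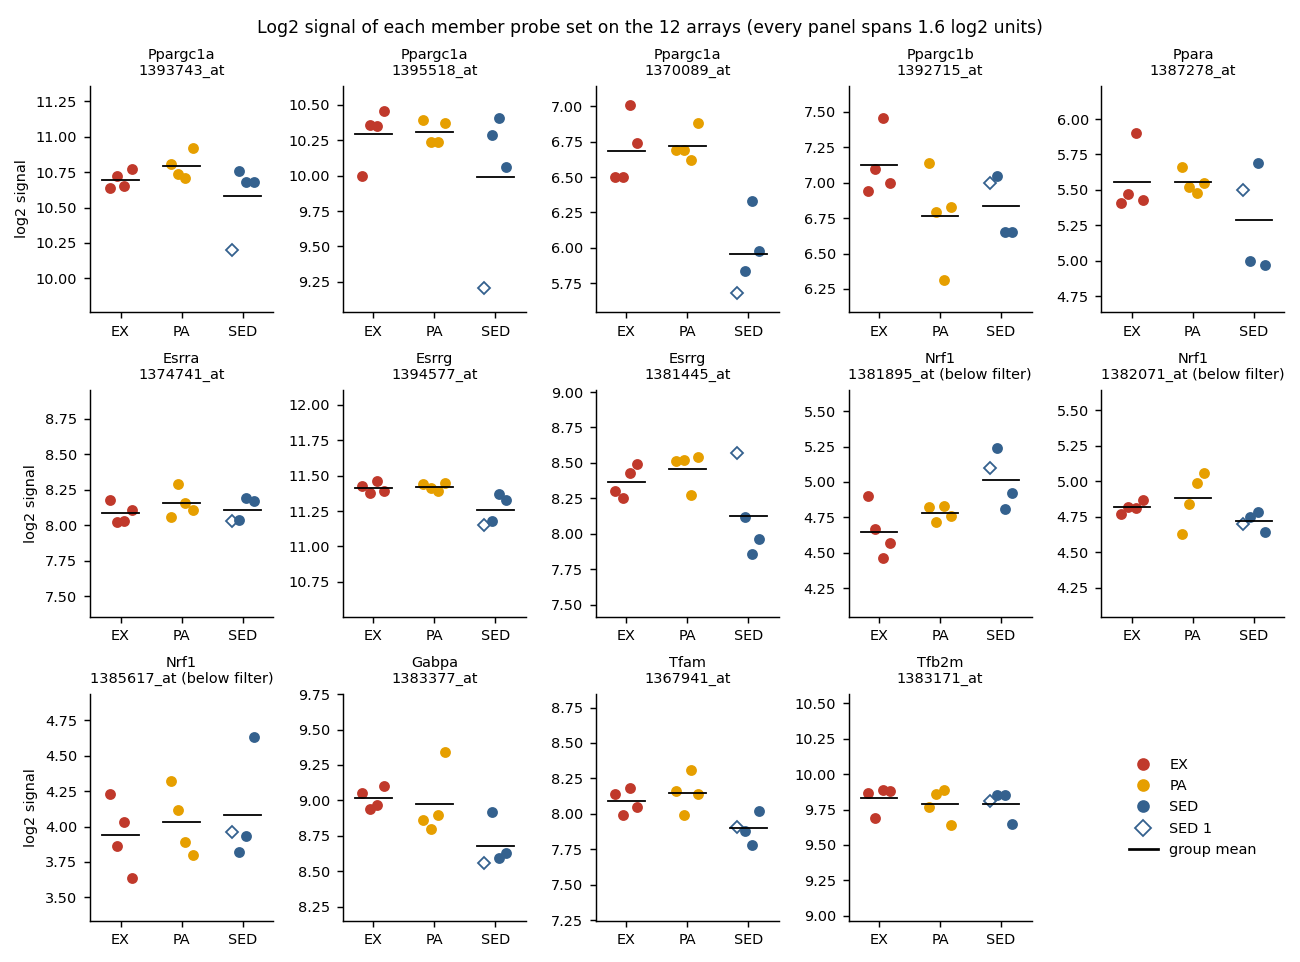
Log2 signal (vertical axis) of each of the 14 member probe sets on the 12 arrays, by group (horizontal axis: EX, PA, SED). Points are arrays, the open diamond is SED 1, and bars are group means of 4 arrays. On Ppargc1a 1370089_at all EX and PA arrays lie at 6.50 or above and all SED arrays at 6.33 or below, while on 1393743_at and 1395518_at SED 1 is the array that is low.

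The same disagreement can be shown array by array, by setting 1 Ppargc1a probe set against another. This restates the differences above and adds no further evidence. The subtraction removes a shift of a whole array, but not a difference in spread between arrays. The signal of 1370089_at minus that of 1393743_at was -4.14, -4.22, -3.64 and -4.03 in EX, -4.12, -4.05, -4.09 and -4.04 in PA, and -4.52, -4.92, -4.35 and -4.70 in SED. Every SED array lay below every EX and PA array, with means of -4.01 ± 0.26 in EX, -4.08 ± 0.04 in PA and -4.62 ± 0.24 in SED (SD, n = 4 each). Against 1395518_at, the same probe set stood at -3.61 ± 0.23 in EX, -3.59 ± 0.09 in PA and -4.04 ± 0.38 in SED, and SED 1 (-3.53) lay among the EX and PA arrays. The bright pair differed by -0.40 ± 0.16 in EX, -0.49 ± 0.05 in PA and -0.59 ± 0.30 in SED, with the groups overlapping. The probe positions within the Ppargc1a transcripts were not used here.

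**Figure D2:**
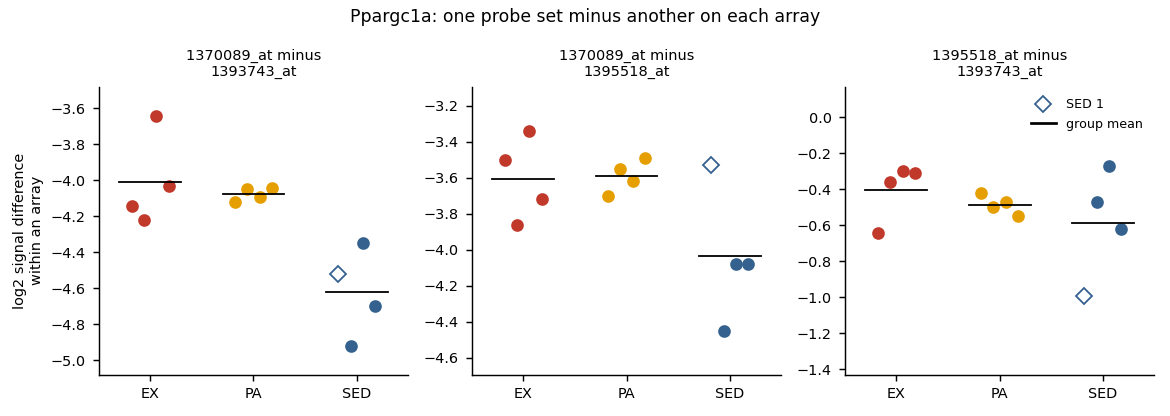
Log2 signal of one Ppargc1a probe set minus another on the same array (vertical axis), by group (horizontal axis), for the 3 pairs of probe sets. Points are arrays, the open diamond is SED 1, and bars are group means of 4 arrays. In the left panel the SED arrays, at -4.92 to -4.35, lie below the EX and PA arrays, at -4.22 to -3.64; in the right panel the groups overlap.

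Ppargc1b is the second coactivator. Its log2 signal was 6.94, 7.10, 7.46 and 7.0 in EX, 7.14, 6.79, 6.31 and 6.83 in PA, and 7.0, 7.05, 6.65 and 6.65 in SED. EX 3 was the highest array and PA 3 the lowest, and all groups overlapped. The difference was 0.29 ± 0.18 (SE, 95% interval -0.10 to 0.68) in EX against SED and -0.07 ± 0.18 (-0.46 to 0.32) in PA against SED. Without EX 3 the difference in EX was 0.18, and without PA 3 that in PA was 0.08. With quantile normalization they were 0.17 and -0.18.

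Among the nuclear receptors, Ppara, the fatty acid sensor PPARalpha, had log2 signals of 5.41, 5.47, 5.90 and 5.43 in EX, 5.66, 5.52, 5.48 and 5.55 in PA, and 5.50, 5.0, 5.69 and 4.97 in SED. SED 2 and SED 4 were low and SED 1 and SED 3 within the range of the other groups. The difference was 0.26 ± 0.17 (SE) in each of EX and PA against SED, with a 95% interval of -0.11 to 0.63. Without EX 3 the difference in EX was 0.15, and without SED 4 that in PA was 0.16. With 32 added to the linear signals they were 0.15 and 0.14. Esrra, encoding estrogen-related receptor alpha, had means of 8.09 ± 0.08 in EX, 8.16 ± 0.10 in PA and 8.11 ± 0.08 in SED (SD, n = 4 each). It differed by -0.02 ± 0.09 (SE) in EX against SED and by 0.05 ± 0.09 in PA against SED. With quantile normalization these were -0.13 and -0.06, so the sign turned in PA.

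Esrrg, encoding estrogen-related receptor gamma, which is abundant in heart, had 2 probe sets, both with higher means in EX and PA than in SED. On 1394577_at the log2 signal was 11.43, 11.38, 11.46 and 11.39 in EX, 11.44, 11.41, 11.39 and 11.45 in PA, and 11.15, 11.18, 11.37 and 11.33 in SED. The groups with activity did not overlap with SED, although the lowest EX array (11.38) was only just above SED 3 (11.37). The difference was 0.16 ± 0.08 (SE) in EX against SED and 0.165 ± 0.08 in PA against SED, or 1.12-fold in each, and 0.12 ± 0.08 and 0.13 ± 0.08 without SED 1.

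On 1381445_at the log2 signal of Esrrg was 8.30, 8.25, 8.43 and 8.49 in EX, 8.51, 8.52, 8.27 and 8.54 in PA, and 8.57, 8.12, 7.86 and 7.96 in SED. SED 1 was the highest array of all 12, and the other SED arrays were below every EX and PA array. The difference was 0.24 ± 0.14 (SE) in EX against SED and 0.33 ± 0.14 in PA against SED. Leaving out SED 1 gave 0.39 ± 0.10 and 0.48 ± 0.10, so this array narrowed the difference here, while on the bright Ppargc1a probe sets it widened it. Without SED 3, the lowest array, the differences were 0.15 and 0.24, and with quantile normalization 0.15 and 0.23.

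Of the DNA-binding factors, Nrf1 was near background: its 3 probe sets had mean log2 signals of 4.82, 4.81 and 4.02, all under the filter at 4.94, and were not tested. They did not point one way. On 1381895_at the signal was 4.90, 4.67, 4.46 and 4.57 in EX, 4.82, 4.72, 4.83 and 4.76 in PA, and 5.10, 5.24, 4.81 and 4.92 in SED, a difference of -0.37 ± 0.12 (SE) in EX against SED and -0.235 ± 0.12 in PA against SED. On 1382071_at the differences were 0.10 ± 0.10 and 0.16 ± 0.10, and 0.20 and 0.26 with quantile normalization. On 1385617_at they were -0.145 ± 0.19 and -0.05 ± 0.19, the second of which turned to 0.08 with quantile normalization. With 32 added to the linear signals the differences of 1381895_at were -0.17 and -0.12, and with quantile normalization -0.29 and -0.16.

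Gabpa, the DNA-binding subunit of GA-binding protein, had log2 signals of 9.05, 8.94, 8.97 and 9.10 in EX, 8.86, 8.80, 8.90 and 9.34 in PA, and 8.56, 8.92, 8.59 and 8.63 in SED. The EX arrays lay above all SED arrays, if narrowly above SED 2, while the PA arrays overlapped with SED 2 and were spread by PA 4, the highest array. The means were 9.02 ± 0.07 in EX, 8.98 ± 0.25 in PA and 8.68 ± 0.17 in SED (SD, n = 4 each). The difference was 0.34 ± 0.13 (SE) in EX against SED and 0.30 ± 0.13 in PA against SED, or 1.27-fold and 1.23-fold, and 0.30 ± 0.13 and 0.26 ± 0.13 without SED 1. Without PA 4 the difference in PA was 0.18. With quantile normalization the differences were smaller, at 0.25 in EX and 0.21 in PA.

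Tfam, which packages mitochondrial DNA and binds its promoters, had log2 signals of 8.14, 7.99, 8.18 and 8.05 in EX, 8.16, 7.99, 8.31 and 8.14 in PA, and 7.91, 7.88, 7.78 and 8.02 in SED. EX 2 and PA 2 lay below SED 4, and all other EX and PA arrays lay above every SED array. The difference was 0.19 ± 0.09 (SE, 95% interval -0.01 to 0.40) in EX against SED and 0.25 ± 0.09 (0.05 to 0.46) in PA against SED, and 0.20 ± 0.10 and 0.26 ± 0.10 without SED 1. With quantile normalization they were 0.09 and 0.14.

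Tfb2m, the partner of mitochondrial RNA polymerase in promoter melting, showed no such separation. Its log2 signal was 9.69 to 9.89 in EX, 9.64 to 9.89 in PA and 9.65 to 9.85 in SED. The difference was 0.04 ± 0.09 (SE, 95% interval -0.16 to 0.24) in EX against SED, where the sign turned with quantile normalization (-0.01), and 0 ± 0.09 (-0.20 to 0.20) in PA against SED.

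**Figure D3:**
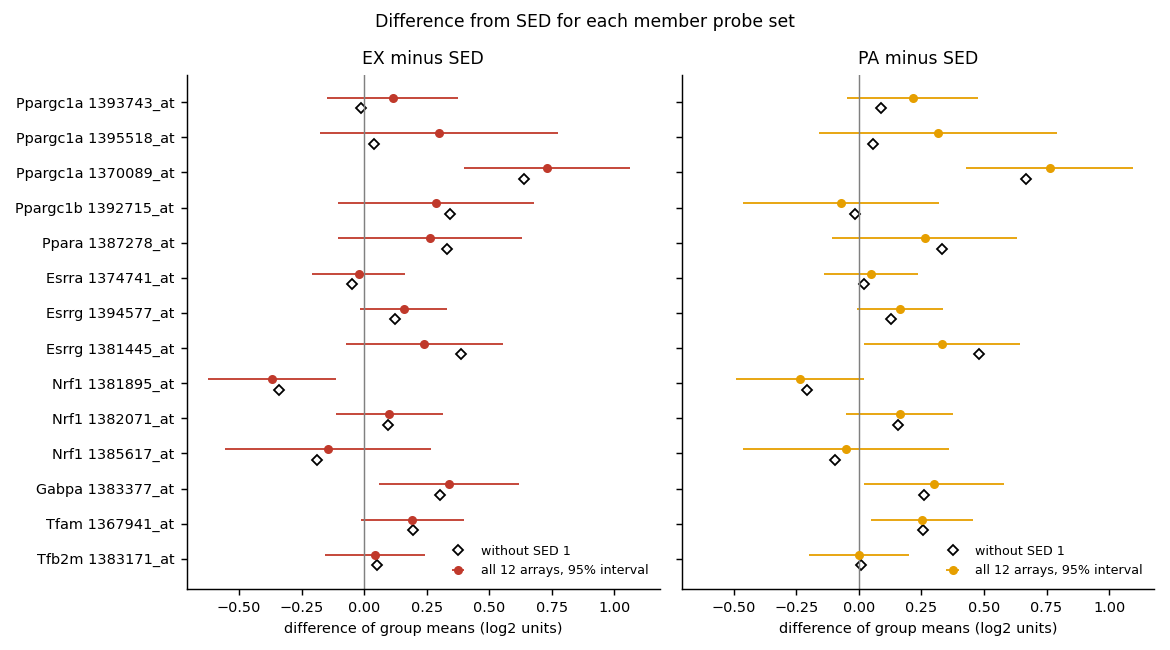
Difference of group means in log2 units (horizontal axis) for each member probe set (vertical axis), EX minus SED on the left and PA minus SED on the right. Filled points are all 12 arrays with the 95% interval of the limma model, and open diamonds are the values without SED 1. Ppargc1a 1370089_at is farthest to the right in each panel, at 0.73 and 0.76, and the open diamonds of the other Ppargc1a probe sets lie between -0.01 and 0.09.

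Over the set, 11 of the 14 probe sets, for 8 of the 9 genes, passed the filter. In EX against SED, 0 of the 11 passed an adjusted p of 0.05 by limma, as did 0% of all 18626 probe sets tested. At an unadjusted p under 0.05 there were 2 of the 11, against 15.6% of all probe sets. Both, Ppargc1a 1370089_at and Gabpa, were higher in EX (9.3% of all), and 0 were lower (6.3%). EX arrays lay wholly above SED arrays in 3 of the 11 (4.39% of all probe sets) and wholly below in 0 (3.51%). Without SED 1 these counts were 4 (6.67%) and 0 (4.8%), the added one being Esrrg 1381445_at. The mean was higher in EX for 10 and lower for 1, with a median difference of 0.24, where all tested probe sets had 59.7% higher and a median of 0.055. Since the rule rests in part on this contrast, nothing is read from these counts.

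In PA against SED, 0 of the 11 passed by limma (0% of all), and 4 had an unadjusted p under 0.05 (15.2% of all), with 4 higher (9.28%) and 0 lower (5.97%). PA arrays lay wholly above SED arrays in 2 (4.88%) and wholly below in 0 (3.51%), and without SED 1 in 3 (6.69%) and 0 (4.76%). The mean was higher in PA for 9, lower for 1 and equal for 1, and the median difference was 0.25, against 60.9% higher and a median of 0.0625 over all probe sets. Both comparisons share the SED arrays. With EX and PA together against SED, a contrast taken from earlier work on these data, 0 of the 11 passed (0% of all), and 5 had an unadjusted p under 0.05 (19.2% of all), with 5 higher (11.9%) and 0 lower (7.3%). Ppargc1a 1370089_at and Esrrg 1394577_at had all EX and PA arrays above all SED arrays (1.59% of all), and 0 members had them below (1.75%). Without SED 1 there were 3 above (2.41%) and 0 below (2.09%). For Ppargc1a 1370089_at this difference was 0.75 ± 0.13 (SE).

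EX against PA sets the 2 forms of activity side by side, and SED 1 enters it only through the shared estimate of spread. By limma, 0 of the 11 tested members passed (0% of all), each with an adjusted p of 1, and 0 had an unadjusted p under 0.05 (2.87% of all, 1.43% in each direction). No member separated the groups in either direction (1.33% of all higher, 1.45% lower). The difference was -0.03 (95% interval -0.37 to 0.30) for Ppargc1a 1370089_at, -0.10 (-0.36 to 0.16) for 1393743_at, 0.04 (-0.24 to 0.32) for Gabpa and -0.06 (-0.27 to 0.15) for Tfam. Ppargc1b had the largest, at 0.36 (-0.03 to 0.75), which was 0.21 without PA 3. Omission of single arrays gave -0.14 to 0.03 for Ppargc1a 1370089_at, -0.13 to -0.06 for 1393743_at, -0.02 to 0.16 for Gabpa and -0.11 to -0.01 for Tfam. The intervals leave room for differences of up to 0.75 log2 units, so equal levels in EX and PA are not shown.

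The genes most like each Ppargc1a probe set were taken as the 3 with the highest Pearson r over the 12 arrays among 10236 genes. Being picked as the highest, they carry no p. For 1370089_at they were Sft2d3 (r = 0.94, rho = 0.83), Ggcx, the vitamin K-dependent carboxylase (r = 0.94, rho = 0.91), and Cul5, a ubiquitin ligase scaffold (r = 0.91, rho = 0.94). Without SED 1 these r were 0.92, 0.96 and 0.91. For 1393743_at they were Ankrd28, Rnh1 and Eif2s3 (r = 0.98, 0.97 and 0.96, rho = 0.92, 0.88 and 0.53), and for 1395518_at Ccdc71l, Plekha1 and Vamp7 (r = 0.98, 0.97 and 0.97, rho = 0.90, 0.87 and 0.84). Without SED 1 the values for the bright probe sets were 0.92, 0.86 and 0.80, and 0.88, 0.90 and 0.80. The 3 lists shared no gene, which with 3 genes each out of 10236 says little about how alike the probe sets are.

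Genes around the pathway were described in 5 lists, each gene by its brightest tested probe set. In EX against SED and in PA against SED, 0 members of any list passed by limma (0% of all probe sets). The list counts stand beside a lean of all tested probe sets. Of these, 59.7% had a higher mean in EX than in SED (median 0.055) and 60.9% in PA (median 0.0625). Without SED 1 the shares were 56.9% (median 0.03) and 60.3% (median 0.04). The deacetylase Sirt1 was listed as an upstream regulator but not tested. Of 20 tested genes listed as upstream regulators, among them kinases and transcription factors, 14 had a higher mean in EX than in SED. The other 6 had a lower mean (median 0.03), and the counts in PA were 15 and 5 (median 0.03). With quantile normalization these counts were 9 and 11 in each comparison. Prkaa1, a catalytic subunit of AMP-activated protein kinase, had a mean log2 signal of 10.74 ± 0.01 in EX arrays, 10.68 ± 0.08 in PA arrays and 10.53 ± 0.10 in SED arrays (± SD over 4 arrays, as for the genes below). Crtc1, a coactivator of CREB, averaged 5.17 ± 0.27 in EX, 5.23 ± 0.19 in PA and 5.54 ± 0.10 in SED. Kat2a, the acetyltransferase GCN5 that restrains PGC-1alpha, averaged 4.96 ± 0.09 in EX, 4.99 ± 0.14 in PA and 5.18 ± 0.08 in SED.

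Of 15 tested receptors and coregulators outside the member set, 11 had a higher and 4 a lower mean in EX than in SED (median 0.07), and 10 and 5 in PA (median 0.06), the PA counts being 6 and 9 with quantile normalization. Rxrg, a retinoid X receptor that pairs with PPARs, averaged 8.60 ± 0.12 in EX, 8.53 ± 0.07 in PA and 8.40 ± 0.09 in SED. Ncoa2, a nuclear receptor coactivator, averaged 5.69 ± 0.22 in EX, 5.65 ± 0.15 in PA and 6.03 ± 0.38 in SED, where SED 1 was the highest array at 6.56. Med1, the Mediator subunit that nuclear receptors contact, averaged 8.19 ± 0.13 in EX, 8.20 ± 0.11 in PA and 8.03 ± 0.08 in SED.

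The list on expression of mitochondrial DNA is close to Tfam and Tfb2m in role. It included Mterf2 and the 3 Mterf genes described below, which were picked for the smallest p for EX and PA together. Of 16 tested genes, 10 had a higher and 6 a lower mean in EX than in SED (median 0.09), and 12 and 4 in PA (median 0.17). Without SED 1 the counts were 8 and 8 in EX (median -0.01) and 10 and 6 in PA (median 0.04). Mterf1, a termination factor of mitochondrial transcription, had log2 signals of 8.14, 8.10, 8.10 and 7.97 in EX, 7.99, 8.11, 8.22 and 8.21 in PA, and 7.56, 7.66, 7.76 and 7.69 in SED. Every EX and PA array lay above every SED array (1.59% of all probe sets). The difference of EX and PA together from SED was 0.44 ± 0.08 (SE), and 0.40 without SED 1. Its relative Mterf3 averaged 8.92 ± 0.10 in EX, 8.96 ± 0.05 in PA and 8.47 ± 0.30 in SED. Mterf4, another of the family, averaged 8.53 ± 0.21 in EX, 8.48 ± 0.09 in PA and 8.08 ± 0.39 in SED, with SED 1 the lowest array at 7.53. The differences of EX and PA together from SED were 0.47 for Mterf3, 0.43 for Mterf4 and 0.40 for Mterf2. Without SED 1 they were 0.33, 0.25 and 0.01.

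The target genes of the pathway differed by small amounts. Of 20 fatty acid targets, 12 had a higher and 7 a lower mean in EX than in SED (median 0.04), and 15 and 5 in PA (median 0.11). Plin5, a coat protein of lipid droplets, averaged 8.23 ± 0.18 in EX, 8.36 ± 0.07 in PA and 8.48 ± 0.10 in SED, the lower mean being in the groups with activity. Etfa, a subunit of the flavoprotein that takes electrons from beta-oxidation, averaged 12.02 ± 0.10 in EX, 12.0025 ± 0.09 in PA and 11.86 ± 0.06 in SED. Acsl1, which activates fatty acids, averaged 12.12 ± 0.10 in EX, 12.23 ± 0.10 in PA and 12.03 ± 0.10 in SED. Of 27 respiratory targets, 15 had a higher and 10 a lower mean in EX than in SED (median 0.02), and 23 and 4 in PA (median 0.08). Without SED 1 they were 12 and 15 in EX (median -0.03) and 19 and 8 in PA (median 0.03). Sdha, the flavoprotein subunit of complex II, averaged 11.79 ± 0.04 in EX, 11.89 ± 0.04 in PA and 11.67 ± 0.22 in SED, and SED 1 was the lowest array at 11.35. Ckmt2, the mitochondrial creatine kinase of muscle, averaged 12.36 ± 0.04 in EX, 12.40 ± 0.03 in PA and 12.26 ± 0.09 in SED, and Ndufs1, a core subunit of complex I, 11.92 ± 0.10 in EX, 12.04 ± 0.09 in PA and 11.85 ± 0.13 in SED.

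In EX against PA, 3 of 27 respiratory targets had a higher and 24 a lower mean (median -0.055), as did 4 and 16 of 20 fatty acid targets (median -0.06) and 3 and 13 of 16 genes of mitochondrial DNA expression (median -0.06). Over all probe sets 46.9% were higher in EX, with a median of -0.01. With quantile normalization the counts were 5 and 22, 5 and 15, and 3 and 13. Averaging the tested probe sets of each gene gave 4 and 23, 5 and 15, and 6 and 10. By limma 0 members of these lists passed (0% of all) and 0 had an unadjusted p under 0.05 (2.87% of all).

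**Figure D4:**
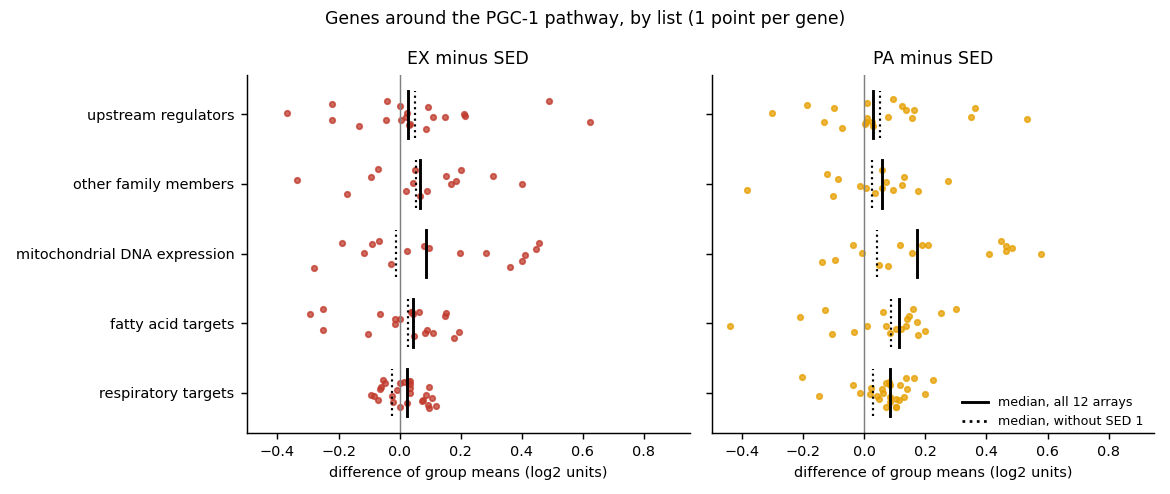
Difference of group means in log2 units (horizontal axis) for the genes of 5 lists around the PGC-1 pathway (vertical axis), EX minus SED on the left and PA minus SED on the right. Each point is 1 gene, solid bars are list medians over all 12 arrays and dotted bars those without SED 1. The genes of mitochondrial DNA expression have medians of 0.09 and 0.17, and -0.01 and 0.04 without SED 1.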

How the data were processed

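Left ventricular RNA was labelled and hybridised to Affymetrix rat expression arrays. The authors deposited 1 table of log2 signals with 31099 rows. MAS5 and RMA are both named, per the submitters' processing notes, without saying which made these values, and they were used as deposited. The 57 control rows were left out. Symbols came from the platform annotation. The brightest 60% of probe sets, ranked on their mean signal across all 12 arrays, were tested (18626, filter at 4.94). Group means were compared with limma 3.58.1 in R 4.3.3, in one fit of all 12 arrays (9 residual degrees of freedom), with Benjamini-Hochberg adjustment over all tested probe sets and a call at 0.05. The same model gave the SE and 95% interval of each difference. The number of arrays limits the precision.

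Named genes are all member probe sets, at most 3 genes per list with the smallest p for EX and PA together, and the 3 genes most like each Ppargc1a probe set (for the dimmer 2 of these, added after seeing the data). The members and lists were chosen with earlier results of these data known, and the motifs after the promoters were seen. Alternatives were quantile normalization, median centring, other filters, a variance trend, array weights, only the compared groups, the replicate number as a block, an offset of 32, a threshold of 0.1, the average of a gene's probe sets and omission of single arrays. The fit was tested on simulated data. Figures used matplotlib 3.10.9 in Python 3.11.15.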

Additional observations from a re-analysis of the deposited data

Results flagged for a closer look

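In 4 of the 42 groups of 4 arrays (14 probe sets in 3 groups), 1 array lay far from the rest, where chance gives about 1 in 20. Ppargc1a 1393743_at read 10.20 in SED 1, with the other SED arrays at 10.68 to 10.76. Ppara read 5.90 in EX 3, with the other EX arrays at 5.41 to 5.47. Esrrg 1381445_at read 8.27 in PA 3, with the other PA arrays at 8.51 to 8.54. Tfb2m read 9.69 in EX 2, with the other EX arrays at 9.87 to 9.89. SED 1 also had the largest Gapdh 3' minus 5' signal (1.56), while its beta-actin signal (1.70) was close to that of SED 3 (1.67). EX 3 had the largest summed atrial marker signal (7057). The part of these features in the flagged values was not tested.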

How the results depend on the processing

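In the fit as described, 0 probe sets passed in any comparison. The replicate numbers do not pair the arrays: deviations of same-numbered arrays correlated at -0.208 to 0.134, and those of differently numbered arrays at -0.214 to 0.224, with 2 of 12 arrays closest to their own number. With the replicate number as a block, 1 probe set passed for EX and PA together against SED and 0 elsewhere, none a member. With quantile normalization and with centred medians 1 passed in that contrast. With array weights 8 passed in EX against SED, 1 in PA against SED, 1 in EX against PA and 184 for EX and PA together, of which 1 was a member. At a threshold of 0.1 there were 4 in EX against SED and 546 for EX and PA together, 1 of them a member. Leaving out 1 array gave 0 to 2 in EX against SED (2 without SED 1, 1 without EX 2), 0 to 12 for EX and PA together (12 without SED 3, 2 without SED 1, 1 without EX 2), and 0 to 1 members there. The member was Ppargc1a 1370089_at each time, and the cause was not tested. Other filters, the variance trend, a fit of the compared groups alone, the block and the other threshold leave a difference of means as it is. Of the 727 member differences that an alternative altered, 219 became over 1.5 times larger or smaller or took the other sign, and 5 moved by over 1 SD between arrays, an SD that includes SED 1: Esrra (3) and Tfam with quantile normalization and Nrf1 1381895_at with the offset of 32. Averaging the tested probe sets of a gene gave 9 to 16 higher per list in EX against SED. With 4 arrays a group, the 95% intervals of the tested members in EX against SED reach 0.17 to 0.48 log2 units to each side. Differences smaller than these could not be resolved. Larger ones did not pass either, since the intervals are not adjusted for the number of probe sets tested. Ppargc1a 1370089_at, at 0.73, had an adjusted p of 0.13 by limma.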
